A study of Mus musculus with 18 samples.

Results

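The cytosolic ribosomal protein genes were examined in the aging mouse muscle, where 84 of the 23420 genes in the RNA-seq table carried a symbol of this class. They were chosen by symbol alone (Rpl or Rps followed by a number, with the paralog endings in use, together with Rplp0, Rplp1, Rplp2 and Rpsa), and no measured value entered the choice. The class held 51 genes of the large subunit and 33 of the small subunit. Hindlimb muscle was taken from female C57BL/6J mice at 2 months (2 m), 20 months (20 m) and 28 months (28 m), with 3 mice at each age and no treatment or engineered allele at any age. Poly-A RNA of each mouse was sequenced without pooling, which gave 9 RNA-seq libraries. The methylation data (MBD-seq) come from muscle and splenic T-cell DNA that a methyl-CpG-binding protein had retained, and here each age was a single pool of 3 mice.

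Cytosolic ribosomes translate nearly all proteins of the cell, and each is built from ribosomal RNAs and one copy of most ribosomal proteins. The messages of these proteins are abundant, mostly short, and begin in many cases with a C followed by an unbroken stretch of pyrimidines, the 5′ terminal oligopyrimidine (TOP) motif, through which mTORC1 signalling controls their translation. Skeletal muscle has a ribosomal protein of its own, RPL3L, which can take the place of RPL3 near the catalytic centre of the large subunit.

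The TOP motif was looked for because it is a sequence feature that the choice by symbol did not use. Of the 84 genes, 63 had a promoter window in RefSeq (GRCm38.p6), and in 13 of them (20.6%) a C stood at an annotated start and was followed by at least 4 bases that were all C or T on the transcribed strand. Among 26962 other genes with such a window the share was 2.97%. Within 5 bases of a start the pattern was found in 29 of the 63 genes (46.0%) and in 21.1% of the others. Windows of 30 bases are shown for a stalk gene, a gene whose protein is phosphorylated downstream of mTORC1 (Rps6), another pair with the motif, and the muscle form Rpl3l, whose window did not hold it; each begins 10 bases before the annotated start, and capitals mark the pyrimidine run that opens at the start:
Rplp2 (chr7:141447641-141447670, plus strand): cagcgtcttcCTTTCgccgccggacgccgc
Rps6 (chr4:86857348-86857377, minus strand): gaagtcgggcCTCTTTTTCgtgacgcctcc
Rps18 (chr17:33955646-33955675, minus strand): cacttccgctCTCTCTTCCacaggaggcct
Rpl38 (chr11:114668570-114668599, plus strand): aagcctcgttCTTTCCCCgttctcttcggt
Rpl3l (chr17:24727816-24727845, plus strand): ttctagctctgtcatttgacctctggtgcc
A match is only a match of letters at an annotated start, and annotated starts can lie some bases from the true one. Between 2 m and 20 m, the median log2 fold change was -0.07 over the 13 genes with the motif and -0.08 over the other 47 genes with a window that were tested.

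The libraries held 20203833 to 71115244 reads on genes, and the ribosomal protein genes took 202424 to 697980 of them. Levels are given as normalized counts, the deposited reads divided by 1 size factor per library. The libraries numbered 3 at each age stood apart from the rest. The ribosomal RNA precursor gene Rn45s took 8.81 to 10.4% of gene reads in them and 24.0 to 30.4% in the other 6. The ribosomal protein genes were lower in them: the median difference on the log2 scale between library 3 and the mean of libraries 1 and 2 was -0.21 at 2 m, -0.16 at 20 m and -0.20 at 28 m, and 69 to 76 of the 81 genes tested lay below 0. For 730 other genes with transcripts under 1000 bases, these medians were -0.12, -0.09 and -0.15. The part of these libraries in the results was not tested beyond the fits described below.

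The ribosomal protein genes together took 0.852, 0.878 and 0.999% of all gene reads in the 3 libraries at 2 m, 0.812, 0.843 and 0.981% at 20 m, and 0.812, 0.975 and 1.04% at 28 m. These groups overlapped, and the highest share at each age was that of library 3. With the reads of Rn45s left out of the total, a choice made after seeing the data, the shares were 1.17% ± 0.064 (SD, n = 3) at 2 m, 1.09% ± 0.017 (SD, n = 3) at 20 m and 1.22% ± 0.087 (SD, n = 3) at 28 m. On this total every library at 28 m (1.16 to 1.32%) was above every library at 20 m (1.075 to 1.109%), while those at 2 m (1.10 to 1.22%) overlapped with both. In bulk muscle, fewer cells of a type and less RNA per cell cannot be told apart.

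**Figure D1:**
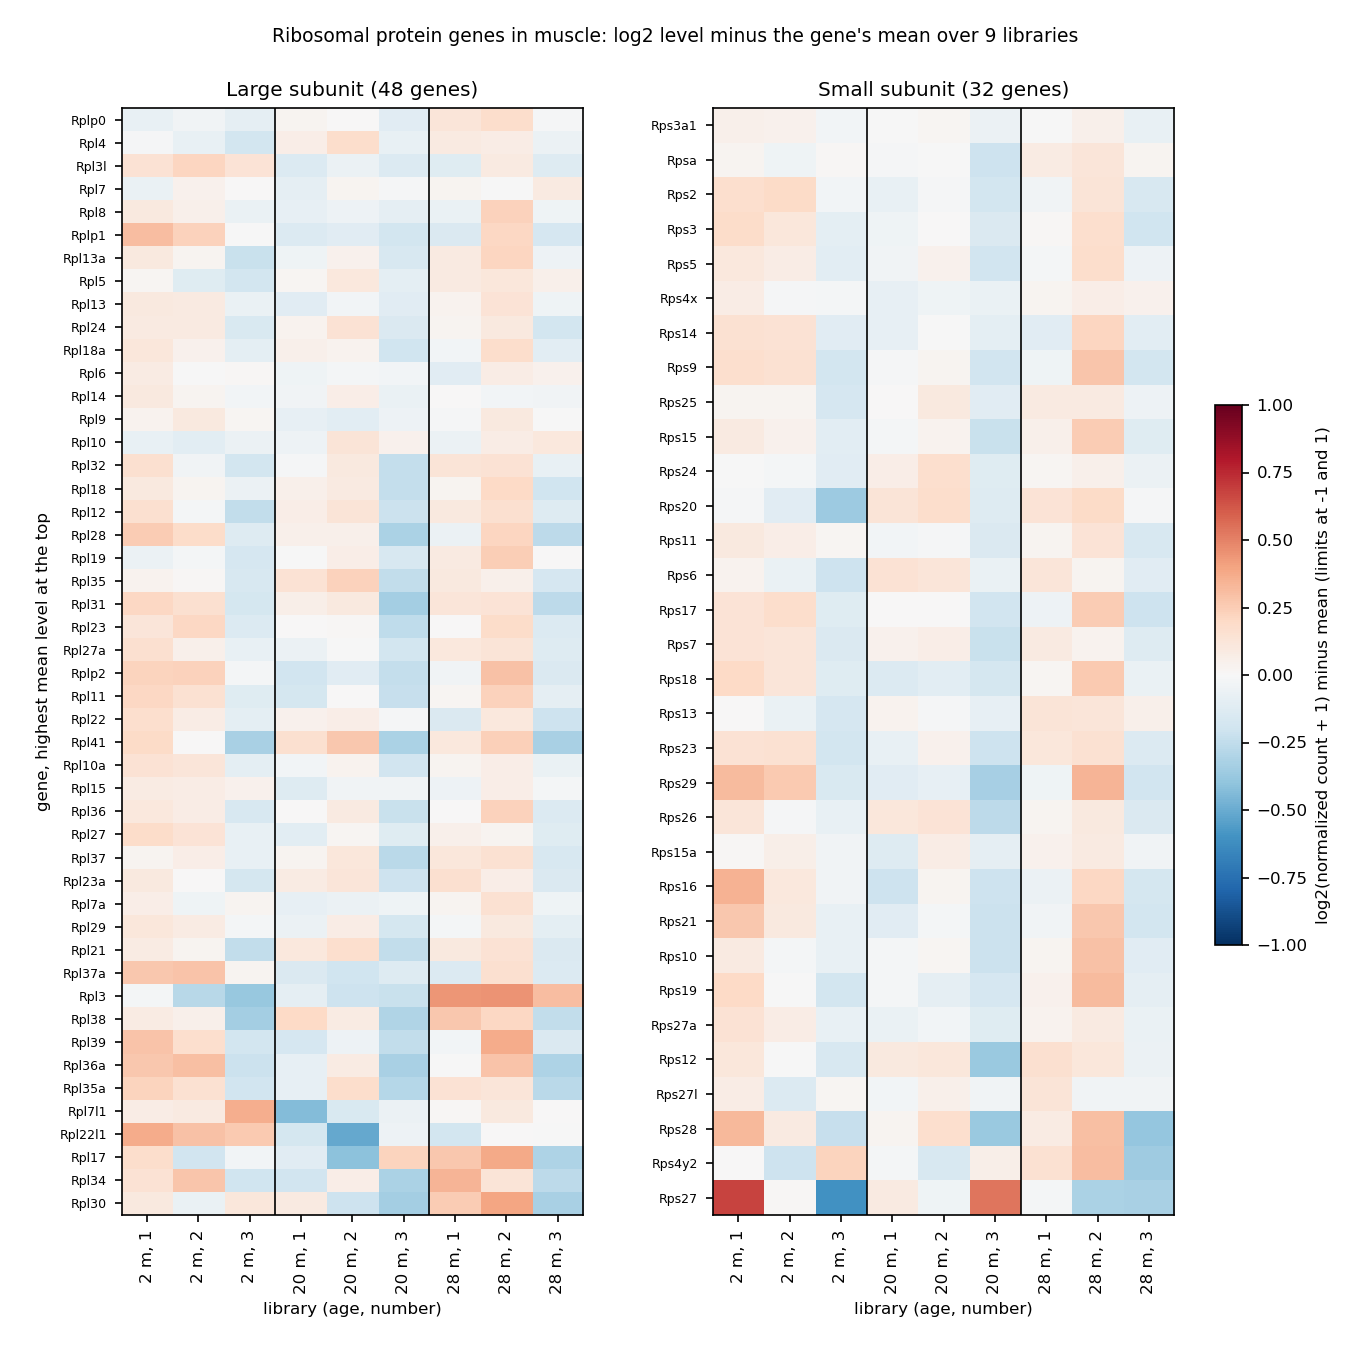
Log2 level of 80 of the 81 tested ribosomal protein genes in the 9 muscle RNA-seq libraries (columns, by age and number), as the difference from the gene's own mean, with 48 large-subunit and 32 small-subunit genes ordered by mean level. The columns numbered 3 are the bluest at each age, Rpl3 is red in the 3 libraries at 28 m alone, and Rpl22l1 is red in the 3 libraries at 2 m.

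The comparison between 20 m and 2 m asked how these genes differed between the young and the aged muscle. Of the 84 genes, 81 had a mean normalized count of at least 10 and were tested with limma over all 13178 such genes. None of them rose and 4 fell at an adjusted p under 0.05, against 9.42% of all tested genes higher and 7.13% lower. At an unadjusted p under 0.05 in either direction there were 9 of the 81, against 4153 of all 13178 genes. With edgeR or DESeq2 on the recovered reads none rose either at an adjusted p under 0.05, while 4 fell with edgeR and 7 with DESeq2. Of all genes, edgeR called 9.33% higher and 7.36% lower, and DESeq2 10.9% higher and 8.52% lower. The median log2 fold change over the 81 genes was -0.080, with 61 genes below 0, and over all genes tested it was -0.017. Over the 730 other genes with transcripts under 1000 bases it was -0.17, with 540 below 0. The median of the class ranged from -0.142 without library 3 at 2 m to -0.038 without library 3 at 20 m. The ribosomal protein genes were spread over a narrow range: 77 of 81 (95.1%) differed by less than 1.25-fold, and 62.9% of all genes tested did. The large and the small subunit had the same median log2 fold change of -0.08, and all 4 genes that fell with limma belonged to the large subunit. In the 6 libraries numbered 1 and 2 alone, 2 fell (Rpl22l1 and Rpl37a), against 3.21% of all genes lower and 5.28% higher in that fit, and with each library scaled to an equal total, none did, against 1.76% of all genes lower and 2.68% higher.

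Rpl22l1, a paralog of Rpl22 that can enter the ribosome in its place, showed the largest fall. Its normalized counts were 1319.5, 1253 and 1223 at 2 m and 904, 715 and 986 at 20 m. The groups did not overlap, and the log2 fold change was -0.55 ± 0.12 (SE, limma adjusted p = 0.00708). Rpl22 itself lay at 4449, 4183 and 3713 at 2 m and 4082, 4157 and 3928 at 20 m, with overlapping groups and a log2 fold change of -0.02 ± 0.09 (SE, adjusted p = 0.922). The counts of Rpl22l1 at 28 m were 901, 1026 and 1017, all below those at 2 m, and this difference of -0.37 ± 0.12 (SE) had an adjusted p of 0.0542. It passed the test with a term for the libraries numbered 3 (adjusted p = 0.0369), with the libraries of these 2 ages only (0.0425) and with DESeq2 (0.0385), and its limma adjusted p ranged from 0.0268 without library 2 at 20 m to 0.183 without library 1 at 28 m.

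Rpl7l1, a paralog of Rpl7 that takes part in ribosome assembly, lay at 1369, 1387 and 1679.9 at 2 m and at 966, 1174 and 1252 at 20 m. Every 20-m library was below every 2-m library, and the log2 fold change was -0.39 ± 0.11 (SE, adjusted p = 0.0332). The counts at 28 m were 1311, 1395 and 1309.8, above all those at 20 m and overlapping with those at 2 m. Rpl7 differed by -0.02 ± 0.07 on the log2 scale between 20 m and 2 m (SE, adjusted p = 0.884). Without library 3 at 2 m or libraries 1 or 2 at 20 m, the adjusted p of Rpl7l1 was 0.111, 0.152 and 0.0670, with the libraries of these 2 ages only it was 0.0638, and in the 6 libraries numbered 1 and 2 it was 0.0849.

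Rpl37a, a small zinc-binding protein of the large subunit, fell from 2532, 2564 and 2149 at 2 m to 1902, 1836 and 1924 at 20 m, a log2 fold change of -0.35 ± 0.10 (SE, adjusted p = 0.0313). The 20-m libraries were closely grouped below the lowest 2-m library. At 28 m the counts were 1915, 2357 and 1916 and overlapped with those of 2 m. Leaving out libraries 1 or 2 at 2 m or any of the 3 at 20 m gave adjusted p-values of 0.0606 to 0.103.

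The fourth gene that fell was the muscle form Rpl3l. Its normalized counts were 17550.3, 18467 and 17493 at 2 m, 14468, 15253 and 14487 at 20 m, and 14634, 16914 and 14574 at 28 m. All libraries at 20 m and 28 m were below those at 2 m. The log2 fold change was -0.28 ± 0.08 (SE, adjusted p = 0.0323) for 20 m against 2 m and -0.22 ± 0.08 (SE, adjusted p = 0.0892) for 28 m against 2 m. Without any one of the 6 libraries at 2 m and 20 m, the first of these had an adjusted p of 0.0544 to 0.117. The second had 0.0238 without library 2 at 28 m and up to 0.257 without another single library. It had 0.0316 with a replicate block and 0.0489 with a term for the libraries numbered 3. Between 20 m and 28 m Rpl3l differed by 0.06 ± 0.08 (SE, adjusted p = 0.849).

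The comparison between 28 m and 2 m asked the same of the superaged muscle. There, 1 gene of the 81 rose and none fell, against 7.53% of all tested genes higher and 6.24% lower. At an unadjusted p under 0.05 there were 8 of the 81, against 3710 of all 13178 genes. The median log2 fold change was -0.0058 over the ribosomal protein genes, with 38 above 0 and 43 below, -0.011 over all genes tested and -0.15 over the 730 other short genes. Of the 81 genes, 79 (97.5%) differed by less than 1.25-fold, compared with 65.8% of all genes tested. With edgeR on the recovered reads none fell either (7.3% of all genes higher, 6.17% lower), and with DESeq2 1 did, Rpl22l1 (8.7% higher, 7.43% lower).

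The gene that rose was Rpl3, the form of the protein found in most tissues. Its normalized counts were 1935, 1618 and 1507 at 2 m, 1848, 1702 and 1682 at 20 m, and 2659, 2675 and 2433 at 28 m. The 3 libraries at 28 m were above all others, and the groups at 2 m and 20 m overlapped. Rpl3 was 1.54-fold higher at 28 m than at 2 m, a log2 fold change of 0.62 ± 0.10 (SE, adjusted p = 0.00125). It remained called in each of the 9 fits that left out 1 library and in all 13 other alternatives, with the highest adjusted p being 0.0401. Since the 3 libraries at 28 m were above all others, it follows that they were the highest among libraries 1 and 2 alone and among those numbered 3.

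Between 20 m and 28 m, Rpl3 was the only one of the 81 genes that rose and none fell, with limma, edgeR or DESeq2. Of all tested genes, 0.212% were higher and 0.167% lower with limma, 0.228 and 0.159% with edgeR, and 0.933 and 0.797% with DESeq2. At an unadjusted limma p under 0.05 there were 2 of the 81, against 1396 of all 13178 genes. The log2 fold change of Rpl3 was 0.57 ± 0.10 (SE, adjusted p = 0.0256). Without any one of the libraries at 20 m or 28 m the adjusted p was 0.0708 to 0.106, in the 6 libraries numbered 1 and 2 it was 0.155, and with each library scaled to an equal total it was 0.596. The median over the 81 genes was 0.08, with 70 genes above 0, while that over all genes tested was -0.0026 and that over the 730 other short genes 0.025. The median of the class was 0.019 without library 2 at 28 m, 0.030 without library 3 at 20 m and 0.154 without library 3 at 28 m. The comparisons share libraries, so a group that is low at 20 m appears in both that with 2 m and that with 28 m.

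**Figure D2:**
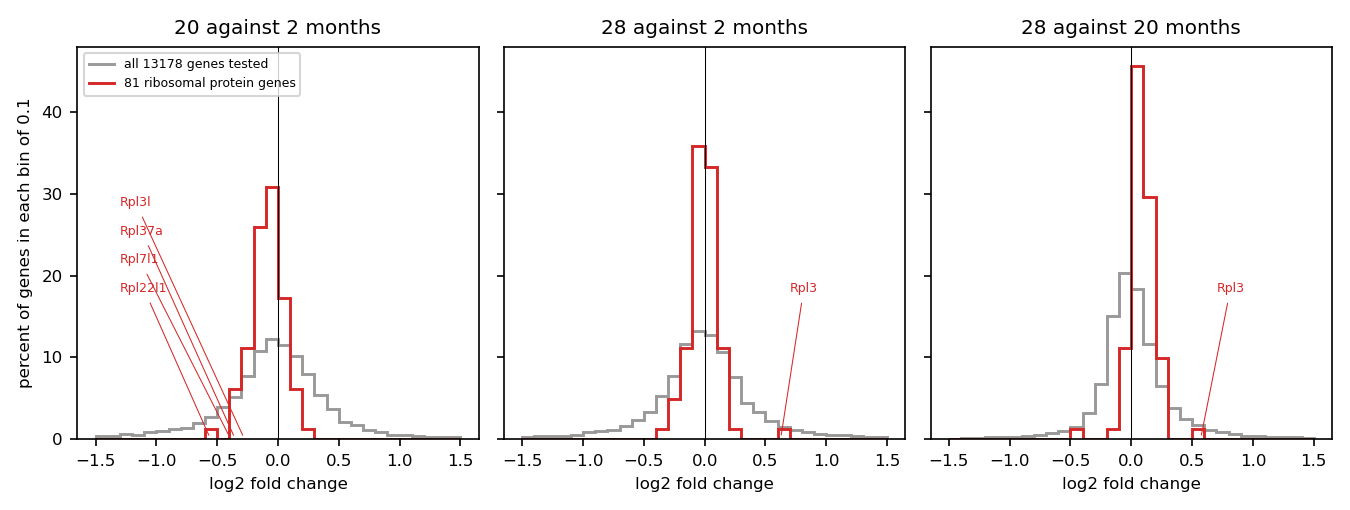
Distribution of log2 fold changes of the 81 ribosomal protein genes (red) and of all 13178 genes tested (grey) in each comparison, as the percent of genes in bins of 0.1, drawn around 0. The red outline is narrower than the grey one, with medians of -0.08, -0.01 and 0.08, and the genes with an adjusted p under 0.05 are named at their fold change.

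Because Rpl3l and Rpl3 encode alternative forms of 1 position in the ribosome, their ratio was computed in each library. Normalized counts of Rpl3l were 9.07, 11.4 and 11.6 times those of Rpl3 at 2 m. The ratio was 7.83, 8.96 and 8.61 at 20 m and 5.50, 6.32 and 5.99 at 28 m. The 3 ages did not overlap, and the mean ratio was 10.7 ± 1.41 (SD, n = 3), 8.47 ± 0.578 (SD, n = 3) and 5.94 ± 0.411 (SD, n = 3). The transcript models are of nearly equal length (1369 and 1361 bases), so the ratio per length was 10.6, 8.42 and 5.90. The log2 ratio differed by -0.33 between 20 m and 2 m, by -0.84 between 28 m and 2 m, and by -0.51 between 28 m and 20 m, each with p = 0.1 in a two-sided exact permutation test, the smallest p that 3 against 3 libraries can give.

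**Figure D3:**
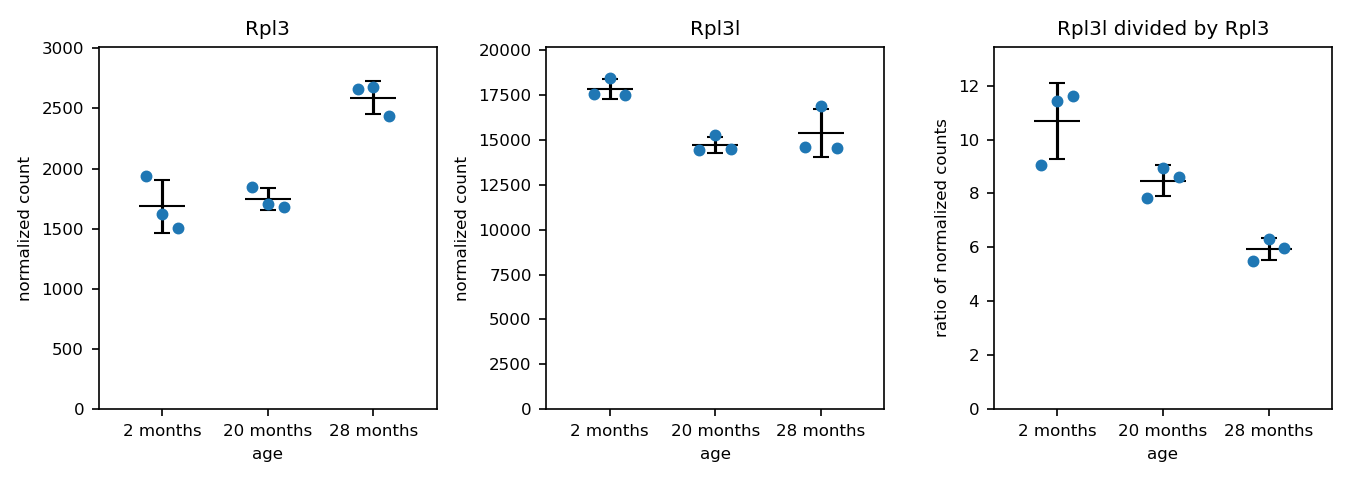
Normalized counts of Rpl3 and Rpl3l, and the ratio of Rpl3l to Rpl3, in the 3 libraries of each age (points), with the mean (horizontal bar) and the SD (error bar). Rpl3 stands highest at 28 m (2433 to 2675), Rpl3l stands highest at 2 m (17493 to 18467), and the ratio steps down from 10.7 to 8.47 and 5.94.

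The transcripts of the paralogs differ enough to be told apart, whereas much of the Rpl3 transcript has copies elsewhere in the genome. The coding sequences of Rpl3 and Rpl3l were identical at 74.4% of 1208 aligned bases, and their longest shared run was 22 bases. None of the 75-base windows of the Rpl3l transcript was found elsewhere in the genome, but 89.0% of those of Rpl3 were. The reads that aligned to more than 1 place were set aside in the counting (20.5 to 22.3% of all recovered reads per library), and how many of these came from Rpl3 is not known, so the ratio of these counts may differ from the ratio of the messages. The part of this in the differences between ages was not tested.

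Copies elsewhere were common in the class. Over the 84 transcripts, a median of 52.3% of 75-base windows occurred elsewhere in the genome, 45 genes had more than 50% of theirs elsewhere, and 4 had none. The median level was 6221 normalized counts per kb over the 45 genes with more than 50% elsewhere and 3979 over the other 39. Those 39 include Rpl10l and Rpl39l, which had few or no reads. Rpl28, a large-subunit gene with 100% elsewhere, lay at 9529. These are levels of different genes, and the effect of the reads set aside was not tested. The order of levels across the class was taken per kb of transcript. The highest were Rplp1 (19031 normalized counts per kb), Rplp0 (18207), Rpl4 (16556), Rps14 (12246) and Rps3a1 (12048), followed by genes at closely spaced levels. Rpl3l, with 11675 per kb, was the seventh of the 84, and Rpl3, with 1474, was far below it.

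Rplp1 and Rplp0 belong to the acidic stalk that recruits the translation factors, and Rps14 and Rps3a1 to the small subunit. At the other end, the lowest genes with any read were the paralogs Rpl39l (2.16 normalized counts per kb) and Rps4y2 (54.9) and the common large-subunit gene Rpl26 (14.5), which had 68.9% of its windows elsewhere. Rps27, of which all windows (100%) occurred elsewhere, had 57.7 normalized counts per kb, while its paralog Rps27l had 3053. The order of Rps27 and Rps27l in these counts may therefore not be that of their messages.

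**Figure D4:**
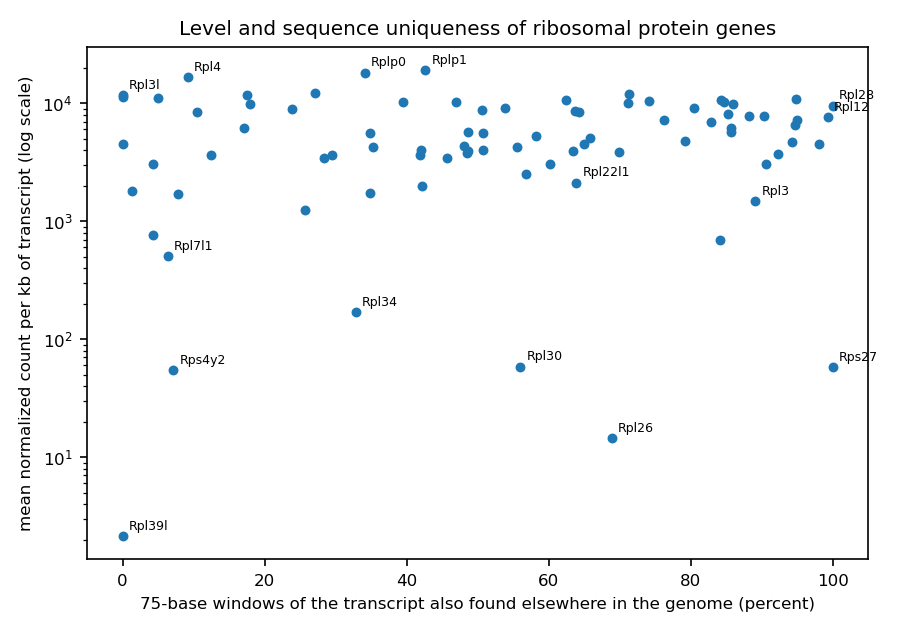
Mean normalized count per kb of transcript (log scale) of the 83 ribosomal protein genes with a read, against the percent of 75-base windows of the transcript that also occur elsewhere in the genome. Rplp1 is at the top with 19031, Rpl3l sits at 0% and Rpl3 at 89.0%, and a few genes such as Rps27 (100%) and Rpl26 (68.9%) lie far below the rest.

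The other paralogs were at a low level or did not pass the test. Rps27l did not differ between ages, with log2 fold changes of 0.01 ± 0.09 (SE, adjusted p = 0.953) at 20 m and 0.03 ± 0.09 (SE, adjusted p = 0.844) at 28 m against 2 m. Rps4y2, an intronless copy of the X-linked Rps4x, had 54.9 normalized counts per kb (39.6 to 63.5 normalized counts over the 9 libraries), and Rps4x had 8414. Rpl10l, a testis form of Rpl10, had no read in any library, which allows up to 3 reads per library, while Rpl10 had 6569 normalized counts per kb. Rpl39l, a testis form of Rpl39, had reads in 3 of 9 libraries (19 in all) and 2.16 normalized counts per kb, while Rpl39 had 4341. These 2 and Rpl26 were the 3 genes not tested.

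The stalk genes were measured together because their proteins form 1 structure. Rplp1 was at 10913, 10386 and 8825 at 2 m, at 8055, 8178 and 7792 at 20 m, and at 7987, 10173 and 7848 at 28 m. Every 20-m library was below every 2-m library, and the log2 fold change of -0.32 ± 0.11 (SE) had an adjusted p of 0.0581. Rplp2 was at 4852, 4864 and 4085 at 2 m, at 3641, 3832 and 3521 at 20 m, and at 4040.02, 5091 and 3748 at 28 m. It differed by -0.32 ± 0.11 on the log2 scale between 20 m and 2 m (SE, adjusted p = 0.0628), again with no overlap. Rplp0, the base of the stalk, did not follow them, with 23450.2, 24096 and 23199 at 2 m and 25195, 24720.3 and 22798 at 20 m and a log2 fold change of 0.04 ± 0.08 (SE, adjusted p = 0.780). With a term for the libraries numbered 3, Rplp1 (adjusted p = 0.0207) and Rplp2 (adjusted p = 0.0183) passed the test between 20 m and 2 m.

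With that term, 9 genes fell and 1 rose between 20 m and 2 m, against 9.18% of all tested genes lower and 12.4% higher in the same fit. Beside the 4 above and the stalk pair, Rps2 and Rps29 of the small subunit were among those that fell, by 0.20 and 0.32 on the log2 scale. The 1 that rose was Rps20, another small-subunit gene, which lay at 5739, 5352 and 4511 at 2 m, at 6322, 6533 and 5302 at 20 m, and at 6355, 6592 and 5734 at 28 m. Within each library number, its level at 20 m and at 28 m was above that at 2 m. Rps20 had a log2 fold change of 0.22 (adjusted p = 0.0249) at 20 m and 0.26 (adjusted p = 0.0120) at 28 m in that fit, and adjusted p-values of 0.177 and 0.121 without the term. Rpsa, which encodes a small-subunit protein also known as a laminin receptor, differed by -0.08 ± 0.08 (SE, adjusted p = 0.541) at 20 m and 0.07 ± 0.08 (SE, adjusted p = 0.571) at 28 m against 2 m, and 34.2% of its exon bases also lie in exons of another annotated gene.

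Of the genes that make or drive the ribosome, most in each list did not pass the test. Among 34 translation factors, 7 rose and 1 fell at 20 m against 2 m, and 5 rose and 2 fell at 28 m. Of all genes tested, 9.42% were higher and 7.13% lower at 20 m, and 7.53% were higher and 6.24% lower at 28 m, and each list is to be read against these shares. The median log2 fold changes of this list were 0.03 and 0.04. The initiation factor subunit gene Eif3a rose from 7207 to 7864 normalized counts at 2 m to 9663 to 10982 at 20 m, a log2 fold change of 0.44 ± 0.08 (SE, adjusted p = 0.00325), and Eif5b, of subunit joining, rose by 0.40 (adjusted p = 0.00735). At 28 m the initiation factor genes Eif3c and Eif2s2 rose by 0.36 (adjusted p = 0.00846) and fell by 0.28 (adjusted p = 0.0383). The elongation factor gene Eef1a1, whose message is itself a TOP message, lay at 16318, 15276 and 15384 at 2 m, at 15791, 15852 and 16125 at 20 m, and at 18502, 19871 and 21236 at 28 m. All libraries at 28 m were above the others, and the log2 fold change against 2 m was 0.34 ± 0.08 (SE, adjusted p = 0.0104). The poly-A-binding protein gene Pabpc1, also with a TOP message, fell by 0.56 ± 0.11 at 20 m (SE, adjusted p = 0.00458) and by 0.49 ± 0.11 at 28 m (SE, adjusted p = 0.0101) on the log2 scale.

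Among 36 ribosome biogenesis genes, 5 rose and 1 fell at 20 m against 2 m, and 2 rose and 1 fell at 28 m, with list medians of 0.05 and 0.07. Of all genes, 9.42% were higher and 7.13% lower at 20 m, and 7.53 and 6.24% at 28 m. Nop14, which acts in the assembly of the small subunit, lay at 769, 812 and 823 at 2 m, at 1219.9, 1179 and 1129 at 20 m, and at 1182, 1048 and 955 at 28 m. Both older groups were above the young one, by 0.55 ± 0.10 (SE, adjusted p = 0.00248) and 0.40 ± 0.10 (SE, adjusted p = 0.0159) on the log2 scale. Rrp12, of the same process, rose by 0.44 at 20 m (adjusted p = 0.0113) and 0.37 at 28 m (adjusted p = 0.0290). Mrto4, of large-subunit assembly, fell by 0.37 at 20 m (adjusted p = 0.0364), and Ltv1, of small-subunit assembly, fell by 0.33 at 28 m (adjusted p = 0.0424).

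Among 21 genes of RNA polymerase I and ribosomal DNA transcription, 1 rose and 1 fell at 20 m, and 2 rose at 28 m, with list medians of -0.04 and -0.01. These counts stand beside 9.42% of all genes higher and 7.13% lower at 20 m, and 7.53 and 6.24% at 28 m. Mybbp1a, a nucleolar regulator of this transcription, rose by 0.29 ± 0.07 at 20 m (SE, adjusted p = 0.0200) and by 0.26 ± 0.07 at 28 m (SE, adjusted p = 0.0349), on the log2 scale. Polr2l, a small subunit shared by the nuclear RNA polymerases, fell by 0.45 ± 0.12 at 20 m (SE, adjusted p = 0.0258). Polr1a, the largest subunit of RNA polymerase I, rose by 0.35 ± 0.10 at 28 m (SE, adjusted p = 0.0403). The 4 ribosomal proteins outside the symbol rule that were tested passed the test in no comparison, with median log2 fold changes of -0.04, 0.08 and 0.09.

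Among 22 genes of mTORC1 signalling to the ribosome, 6 rose and none fell at 20 m against 2 m, and 2 rose and 1 fell at 28 m, with list medians of 0.08 and -0.03, against 9.42% of all genes higher and 7.13% lower at 20 m and 7.53 and 6.24% at 28 m. Mtor, the kinase of the complex, lay at 1975, 2250.3 and 2130.4 at 2 m, at 3422, 3202 and 3211 at 20 m, and at 3196, 2893 and 3069 at 28 m. Both older groups were above the young one, 1.55-fold at 20 m (adjusted p = 0.000239) and 1.44-fold at 28 m (adjusted p = 0.000843). Tsc2, which restrains the complex, rose by 0.35 on the log2 scale at 28 m (adjusted p = 0.0119). Ddit4, an inhibitor of the complex that responds to stress, lay at 1266, 1270.5 and 811 at 2 m, at 2120.3, 2058 and 1715 at 20 m, and at 474, 735 and 504 at 28 m. The 3 ages did not overlap: Ddit4 was 1.79-fold higher at 20 m than at 2 m (adjusted p = 0.0103) and fell by 1.80 on the log2 scale from 20 m to 28 m (adjusted p = 0.000713). Against 2 m it fell by 0.96 at 28 m (adjusted p = 0.00546). It was the only gene of these 5 lists to pass the test between 20 m and 28 m.

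Markers of other cell types differed between the ages as well. Of all genes tested, 9.42% were higher and 7.13% lower at 20 m than at 2 m. At 28 m these shares were 7.53 and 6.24%, and each list is to be read against them. All 9 fibroblast and matrix genes were tested; 5 were lower at 20 m and 4 at 28 m than at 2 m. Their summed level was 59881 to 117343 normalized counts at 2 m, 26620.1 to 30318 at 20 m and 27684 to 37938 at 28 m, with no overlap between 2 m and the older ages. Of the 8 adipocyte genes, 5 were lower at 20 m and 2 at 28 m, and their sums were 7553 to 11474, 4986 to 5642 and 4884 to 7128. Of 10 macrophage genes, 3 were lower at 20 m, with sums of 3875 to 5555 at 2 m and 3511 to 3693 at 20 m. None of them was lower at 28 m, where the sums of 3733 to 5294 overlapped with those at 2 m. The summed lymphocyte genes stayed at 178 or less in all libraries. The red blood cell and marrow genes reached 7072 in 1 library at 2 m and stayed at 493 or less in the others at 20 m and 28 m, with Hba-a1 at 0 in all 9. The 15 myofibre markers summed to 9052310 to 9651250 normalized counts at 2 m, 8063790 to 9891440 at 20 m and 7861580 to 9014870 at 28 m, so that every library at 28 m lay below every library at 2 m. Of them, 2 were higher and 2 lower at 20 m, and 2 higher and 3 lower at 28 m, than at 2 m. The part of these cell types in the falls at 20 m was not tested.

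Methylation at the gene starts was read from the 500-base bin that holds the annotated start, as normalized MBD-seq counts of 1 pool per age. These have no replicate error, and 1 read is worth 0.910, 0.842 and 0.637 normalized counts in the 2-m, 20-m and 28-m muscle libraries. For muscle the labels list 2 MBD-seq samples per age, 1 of them marked as a repeat, and the single value per age used here names neither, so which of them it holds is not known. A bin was measured for 83 of the 84 genes. Most starts were nearly free of captured DNA: in the muscle, the median was 1.82 at 2 m, 0 at 20 m and 5.74 at 28 m, and 34.9, 50.6 and 2.41% of the bins were at 0. Over 22628 other gene starts the medians were 1.82, 1.68 and 6.37, and 31.6, 33.5 and 4.19% were at 0. In T cells, the median over the ribosomal protein genes was 0 at each age.

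In the 2-m muscle 7 starts stood apart, with 48.2 to 201 normalized counts, whereas the next highest had 16.4. Among them were all 4 members on the X chromosome, Rpl10, Rpl36a, Rpl39 and Rps4x. In female cells one X chromosome is inactivated and its CpG-rich starts become methylated, and other gene starts on X had a median of 32.8 in the same library, against 1.82 off X. The other 3 are the starts of the autosomal paralogs Rpl10l, Rps4y2 and Rpl39l, the genes at or near the bottom of the expression order in muscle. Other low genes had no such start: in the same pool, Rpl26, lower per kb than Rps4y2, had 2.73 normalized counts and Rps27 had 0.910.

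These 7 starts were picked by their value in the 2-m muscle pool, a choice that by itself favours a fall from 2 m. All 7 were lower at 28 m than at 2 m in the muscle pools on the scale of normalized counts. With libraries brought to 1 common sum, a choice made after seeing the data, this held for 6 of them and not for Rps4x, which had 48.2, 48.0 and 36.3 normalized counts at the 3 ages but 53, 57 and 57 reads. Rpl10l had 201 normalized counts at 2 m, 132 at 20 m and 51.6 at 28 m. Rps4y2 had 152, 94.3 and 45.9, and Rpl39l had 91.9, 74.9 and 41.4. The members on X went from a mean of 69.6 at 2 m to 54.1 at 20 m and 32.8 at 28 m, and the 1020 other gene starts on X from 37.9 to 30.9 and 19.5. In T cells the same 4 had means of 87.5, 94.0 and 81.9, and the start of Rpl10l had 195, 270.1 and 323. The muscle values of Rpl10l, Rps4y2 and Rpl39l were lowest at 28 m, whereas the T-cell values at the 3 autosomal paralogs were highest at 28 m. In T cells 1 read was worth 1.02, 1.22 and 1.32 normalized counts at 2 m, 20 m and 28 m. The T-cell mean over all bins was 38.8, 47.6 and 48.6, so the T-cell values also carry this change of scale.

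The starts with few reads moved the other way in the muscle. The start of Rpl3 had 0.910, 1.68 and 4.46 normalized counts at 2 m, 20 m and 28 m, and that of Rpl3l 2.73, 3.37 and 9.56. At Rpl22l1 the values were 0.910, 0 and 8.29, and at Rpl37a 4.55, 3.37 and 12.1. Over the 83 starts, the mean change in log2(normalized count + 1) from 2 m to 28 m was 1.06 in the muscle and 0.03 in T cells, and over all bins within 1000 bases of the start it was 0.17 and 0.07. The 22628 other gene starts had a mean change of 0.73 in the muscle and 0.33 in T cells. The mean of the normalized counts themselves went from 10.6 at 2 m to 7.68 and 8.09 over the 83 starts and from 12.7 to 11.2 and 10.7 over the others. Over all bins of the genome the mean was 24.0, 22.2 and 17.6 in the muscle. The muscle pool at 28 m was thus above 0 at nearly every start, whether the level of the gene had risen (Rpl3), had fallen by 20 m (Rpl22l1) or was near the middle of the class.

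**Figure D5:**
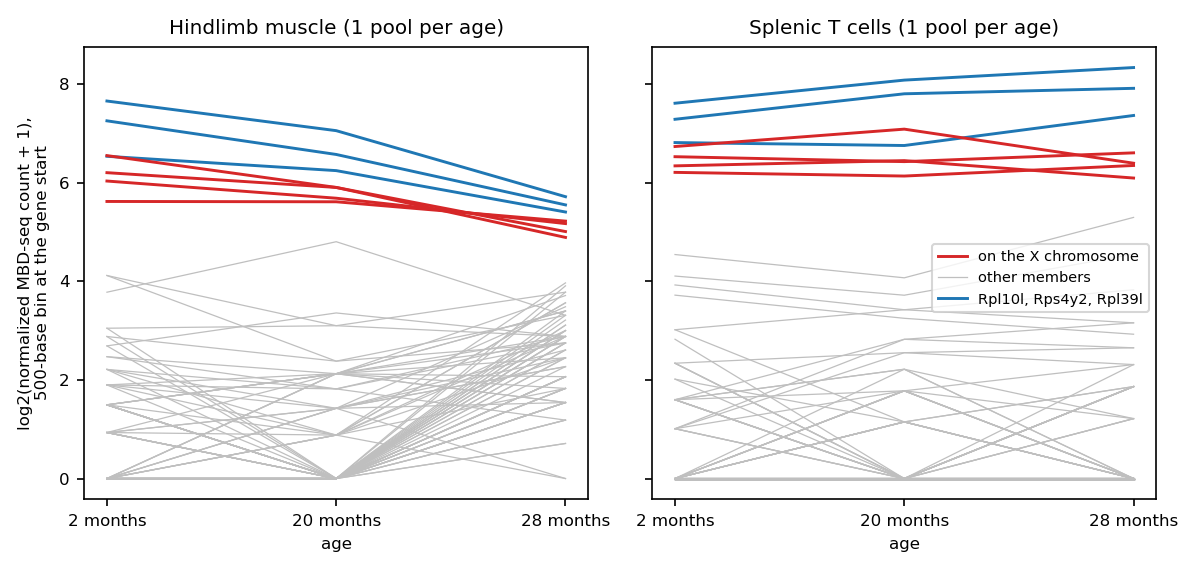
Log2(normalized MBD-seq count + 1) in the 500-base bin at the start of 83 ribosomal protein genes in hindlimb muscle and splenic T cells at 3 ages, 1 pool per age, with the 4 genes on X (red), the paralogs Rpl10l, Rps4y2 and Rpl39l (blue) and the other 76 (grey). In the muscle the coloured lines go down (Rpl10l from 201 to 51.6 normalized counts) while most grey lines rise between 20 m and 28 m, and in T cells the coloured lines stay at or above 67.4 normalized counts.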

How the data were processed

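Upstream, the authors used Trim Galore for adapters, then Bowtie2 for MBD-seq and Hisat2 for RNA-seq (TopHat in the submitters' processing notes), all against mm10. They counted RNA-seq reads over refSeq genes with htseq-count, setting multi-mapped reads aside, and MBD-seq reads over 500-bp bins with bedtools. The deposited signal values are these counts divided by the authors by 1 DESeq2 size factor per library. All values (100%) were whole multiples of 1 step per library within 0.01, which gave back the reads. Rows that name no gene held 37.9 to 47.7% of recovered reads and were left out. The values of 1 gene are not reported here.

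Log2(normalized count + 1) of the 13178 genes with a mean of at least 10 was fitted over all 9 libraries with limma 3.58.1 (limma-trend, R 4.3.3), age being the only term, with Benjamini-Hochberg adjustment over all genes. Fold changes are on this scale. The adjusted p-values measure the spread between 3 mice per age. The deposited reads have no molecular identifiers, so limits from counts cover counting error only. Gene models, promoter windows and sequence came from RefSeq (GRCm38.p6), and all 84 genes matched. Replicate numbers did not pair the libraries across ages: the deviations correlated above 0.1 (Pearson r over genes of 0.109, 0.150 and 0.161) for number 3 and not for 1 or 2.

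The symbol rule for the members used no measured value, but the rule and the lists were set with earlier results of these data known. By rule, the text names the paralogs beside their parent form, the stalk genes and Rpsa, the 5 largest rises and falls past the threshold in each comparison, the 5 highest and 3 lowest genes per kb, and in each list the 2 largest rises and falls past the threshold. Values of other genes (Rps2, Rps6, Rps18, Rps20, Rps29, Rpl28, Rpl36a, Rpl38, Rn45s) were chosen after seeing the data. Alternatives were other pseudocounts (0.1, 5), a filter at a mean of 50 or none at all, scaling to equal totals, quantile normalization, a replicate block, a term for libraries numbered 3, 2 ages only, edgeR 4.0.16, DESeq2 1.42.0 and leaving out each library. Added after seeing the data were the 6 libraries numbered 1 and 2 alone and totals without Rn45s.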

Additional observations from a re-analysis of the deposited data

How the results depend on the processing

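Of 580 values recomputed under an alternative, 503 counted as unchanged. For single genes this meant the same sign and side of the threshold, and for the ratio of Rpl3l to Rpl3 the same sign. Other values had a limit set for a move. For shares of gene reads and class medians it was the SD between libraries of an age, pooled over ages. This SD was above the main differences between ages, so staying within it says little. Of the 503, 10 changed sign (3 shares of gene reads, 6 medians over the class at 28 m against 2 m, and the mean change at gene starts in T cells, -0.07 after rescaling). The 4 ribosomal protein genes lower at 20 m than at 2 m became 0 when libraries were scaled to equal totals, 7 with quantile normalization, 9 with the replicate block, 9 with the term for libraries numbered 3, 7 with DESeq2, 2 in the 6 libraries numbered 1 and 2, 7 with equal totals without Rn45s, and 1 to 7 without single libraries. In these fits, in the same order, 1.76, 7.34, 9.9, 9.18, 8.52, 3.21, 7.24 and 3.55 to 7.52% of all genes were lower. The 0 higher became 1 with the block and with the term. At 28 m against 2 m, the 1 higher became 3 with the block, 2 with the term and 2 with equal totals without Rn45s, and the 0 lower became 2 with the block, 2 with the term, 1 with 2 ages only, 1 with DESeq2 and 0 to 3 without single libraries. Of all genes at 28 m, 10.4% were higher and 8.81% lower with the block, 9.91 and 8.48% with the term, 8.98 and 4.47% with equal totals without Rn45s, 5.38 and 4.55% with 2 ages only, and 8.7 and 7.43% with DESeq2. Without single libraries 3.35 to 6.67% of all genes were lower at 28 m against 2 m. The 1 higher at 28 m against 20 m became 0 with equal totals, 0 in the 6 libraries and 0 to 1 without single libraries, where 0.114, 0.0228 and 0.0606 to 0.387% of all genes were higher. For Rpl3l at 20 m, the log2 fold change was no longer called with no filter (-0.28), equal totals (-0.26), the 6 libraries (-0.28) or most single libraries left out (-0.30 to -0.25). At 28 m against 2 m it became called with the block and with the term (-0.22), and its range without single libraries was -0.29 to -0.18. Rpl3l at 28 m against 20 m reversed to -0.0125 without library 2 at 28 m (range -0.0125 to 0.0949), and Rpl3 at 20 m against 2 m reversed to -0.0217 without library 3 at 2 m (range -0.0217 to 0.158). The share of gene reads without the 100 highest genes moved from -0.031 to -0.187 percentage points at 20 m against 2 m and from 0.065 to 0.201 at 28 m against 20 m. Without single libraries it ran from -0.082 to 0.014 at 20 m, turning positive without library 3 at 2 m or library 1 at 20 m, from -0.016 to 0.0997 at 28 m against 2 m, turning negative without library 3 at 28 m, and from 0.015 to 0.130 at 28 m against 20 m. The mean change at gene starts in the muscle was 0.17 over bins within 1000 bases and 1.58 after rescaling. The cause of each change was not tested. Equal numbers were not treated as pairs. Scaling was the only step of the authors that could be varied, and reads that aligned to more than 1 place could not be restored.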
